A study of Mus musculus with 6 samples.

Results

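Imprinted genes are transcribed mainly from the copy inherited from 1 parent, because DNA methylation set in the egg or the sperm marks one copy of a shared control region and is kept through early development. They lie in domains, in which a methylated control region often governs a long non-coding RNA from one parental copy and protein-coding genes from the other. Many of them act on growth: Igf2 encodes a fetal growth factor, Igf2r a receptor that removes it, and Grb10 and Phlda2 restrain growth of the embryo and the placenta. Cultured mouse embryonic stem cells can lose or gain these marks, so imprinted transcripts are often followed in them.

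The set examined here consisted of 39 imprinted genes listed by name and found on the array by the gene symbol of the platform annotation. Of these, 33 had a probe set of their own among the 19938 genes measured. Snrpn, Mirg and Gnas were read only by probe sets that carried the symbol of a further gene, and no probe set was found by symbol for H19, Kcnq1ot1 and Peg13. Of the 33 genes, 20 are known for paternal and 13 for maternal expression. The arrays read total RNA of both parental copies and do not separate the alleles, so a level says nothing about the state of the imprint. Some members, such as Ascl2, Cd81 and Tssc4, are known to be imprinted mainly in the placenta.

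The 6 samples were V6.5 mouse embryonic stem cells, a line of hybrid origin, and each was read on its own 1-colour GeneChip array (Mouse Gene 1.0 ST). Every culture carried a short hairpin RNA that is switched on by doxycycline (dox), and was kept with dox at 1 µg/ml or without it. Hairpin 1 (shRNA1) and hairpin 2 (shRNA2) were directed at Pcgf6, which encodes a subunit of the variant polycomb complex PRC1.6, and a Scrambled hairpin was the control. Each of the 3 lines was measured on 1 array with dox and 1 without, which gave 4 groups: Pcgf6 hairpins with dox and without dox, 2 arrays each, and the scrambled hairpin with dox and without dox, 1 array each. How long dox was given, and how many clones made up a line, is not given in the sources used here. Separate cultures are not named in the labels, and the p-values therefore reflect only how far these samples spread, part of which may be technical. For dox in the Pcgf6-hairpin cells and its difference from scrambled, that spread is between the hairpin 1 and hairpin 2 arrays of the same dox state. For dox over all lines and for lines, it is how unequal the dox change was between the lines. How far separate cultures of 1 line would spread is not known from these arrays. All cells were grown on mitotically inactivated DR4 mouse embryo fibroblasts, per the labels' protocols.

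Values are the deposited log2 levels. They ran from 2.28 to 14.27 over the arrays, with array medians between 7.02 and 7.08 and correlations between arrays of 0.991 to 0.996. Pcgf6 itself changed by -2.17 under hairpin 1 and -2.44 under hairpin 2 on the log2 scale and differed by 0.02 in the scrambled pair (both hairpins -2.30, SE 0.10, limma adjusted p = 0.000846). The 16 pluripotency markers averaged 11.49 to 11.75 on every array, with Tbx3 lowest at 9.65. The 24 measured markers of fibroblasts, the feeder cell type, averaged 9.90 and 9.88 with and without dox in the hairpin 1 line, 10.20 and 9.78 in the hairpin 2 line, and 9.58 and 9.05 in the scrambled line. The lowest of these markers, Fap, averaged 5.16. The uninduced scrambled array thus carried the lowest fibroblast signal and the induced hairpin 2 array the highest. In a bulk sample, fewer cells of a type and less RNA per cell cannot be told apart.

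Upstream sequences of some members are shown first. The zinc finger protein ZFP57, which helps keep imprints, binds the methylated hexamer TGCCGC at imprint control regions. Sequences are from RefSeq on GRCm38.p6, read 5′ to 3′ on the strand of the gene, and capitals mark the hexamer on either strand. The first runs between the divergent starts of Peg3 and Usp29 at chr7:6730420-6730582, read on the plus strand, and the others are the 250 bases before the start of Meg3 (chr12:109540746-109540995, plus strand), of Plagl1 (chr10:13090582-13090831, plus strand) and of Phlda2 (chr7:143502525-143502774, minus strand).
Peg3-Usp29: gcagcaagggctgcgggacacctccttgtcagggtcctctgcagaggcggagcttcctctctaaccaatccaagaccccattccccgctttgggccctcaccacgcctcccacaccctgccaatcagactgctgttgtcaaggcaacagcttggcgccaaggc
Meg3: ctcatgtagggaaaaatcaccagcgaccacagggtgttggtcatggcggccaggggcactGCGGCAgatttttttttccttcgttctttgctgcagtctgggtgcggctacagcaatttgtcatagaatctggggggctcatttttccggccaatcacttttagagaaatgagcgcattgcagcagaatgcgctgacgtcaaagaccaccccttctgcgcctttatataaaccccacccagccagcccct
Plagl1: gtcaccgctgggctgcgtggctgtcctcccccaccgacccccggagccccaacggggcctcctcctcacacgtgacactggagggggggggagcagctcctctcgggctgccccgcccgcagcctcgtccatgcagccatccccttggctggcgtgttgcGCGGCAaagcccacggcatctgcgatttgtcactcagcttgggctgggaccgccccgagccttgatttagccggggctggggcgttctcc
Phlda2: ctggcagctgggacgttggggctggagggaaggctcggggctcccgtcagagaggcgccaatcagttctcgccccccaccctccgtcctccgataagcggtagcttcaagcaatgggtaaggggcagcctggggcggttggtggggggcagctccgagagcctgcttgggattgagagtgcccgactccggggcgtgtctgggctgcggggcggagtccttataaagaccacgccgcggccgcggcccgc
The Meg3 and Plagl1 stretches each hold the hexamer 1 time, and the stretches of Peg3-Usp29 and Phlda2 hold none. Windows from 250 bases before to 50 bases after a start were scanned on both strands for TGCCGC, for the E-box CACGTG that MAX and MGA of PRC1.6 can bind, and for TTCCCGC, a core of the E2F site; no motif contains another. TGCCGC was in 11 of the 49 windows of listed imprinted genes (22.4%) and in 11.6% of the 32851 windows of all genes. The members' windows also held more CpG, with a median of 15 against 7. The 10 genes with the hexamer were Zdbf2, Nnat, Mest, Nap1l5, Zim1, Snrpn, Igf2, Plagl1, Grb10 and Meg3. CACGTG was in 3 member windows (6.12%) against 7.15% of all, and TTCCCGC in 2 (4.08%) against 4.6%. A match is a run of letters, not a binding site.

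No member passed the test in any of the 6 comparisons made across all genes (limma, two-sided, Benjamini-Hochberg adjustment over 19938 genes, threshold 0.05). With dox against without in the Pcgf6-hairpin cells, 0 of 33 members passed, beside 0.201% of all genes (40 genes). At an unadjusted p under 0.05, 2 members were higher and 5 lower, or 21.2% of members against 8.75% of all genes. The median member difference was 0.01 on the log2 scale and that of all genes -0.01, and the smallest adjusted p of a member was 0.277, for Phlda2. Standard errors of the members ranged from 0.08 to 0.18 with a median of 0.10. In the comparison of this change with the change of the scrambled pair, 0 members passed beside 0.0702% of all genes (14 genes), with 0 higher and 3 lower members at an unadjusted p under 0.05 (9.09% against 4.55%), a median of -0.21 against 0.00 and a smallest adjusted p of 0.952. These comparisons use the same hairpin arrays and are not independent of each other.

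Per line, the changes with dox rest on 1 array against 1 and carry no test. The median member change was -0.03 in the hairpin 1 pair, 0.01 in the hairpin 2 pair and 0.18 in the scrambled pair. Higher values with dox were found for 14 members in the hairpin 1 pair, for 17 in the hairpin 2 pair and for 27 in the scrambled pair. Of all 19938 genes, 10041, 9122 and 9269 were higher in these pairs, with medians of 0.00, -0.02 and -0.01. At least 1.5-fold higher with dox were 0 members in the hairpin 1 pair (0.627% of all genes), 3 in the hairpin 2 pair (2.17%) and 2 in the scrambled pair (1.48%). At least 1.5-fold lower were 1 in the hairpin 1 pair (0.241% of all genes), 1 in the hairpin 2 pair (0.446%) and 0 in the scrambled pair (0.211%). The named genes were Rian, lower under hairpin 1; Igf2r, Plagl1 and Grb10, higher, and Phlda2, lower, under hairpin 2; and Igf2 and Ndn, higher in the scrambled pair. No member reached that size in more than 1 line.

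**Figure D1:**
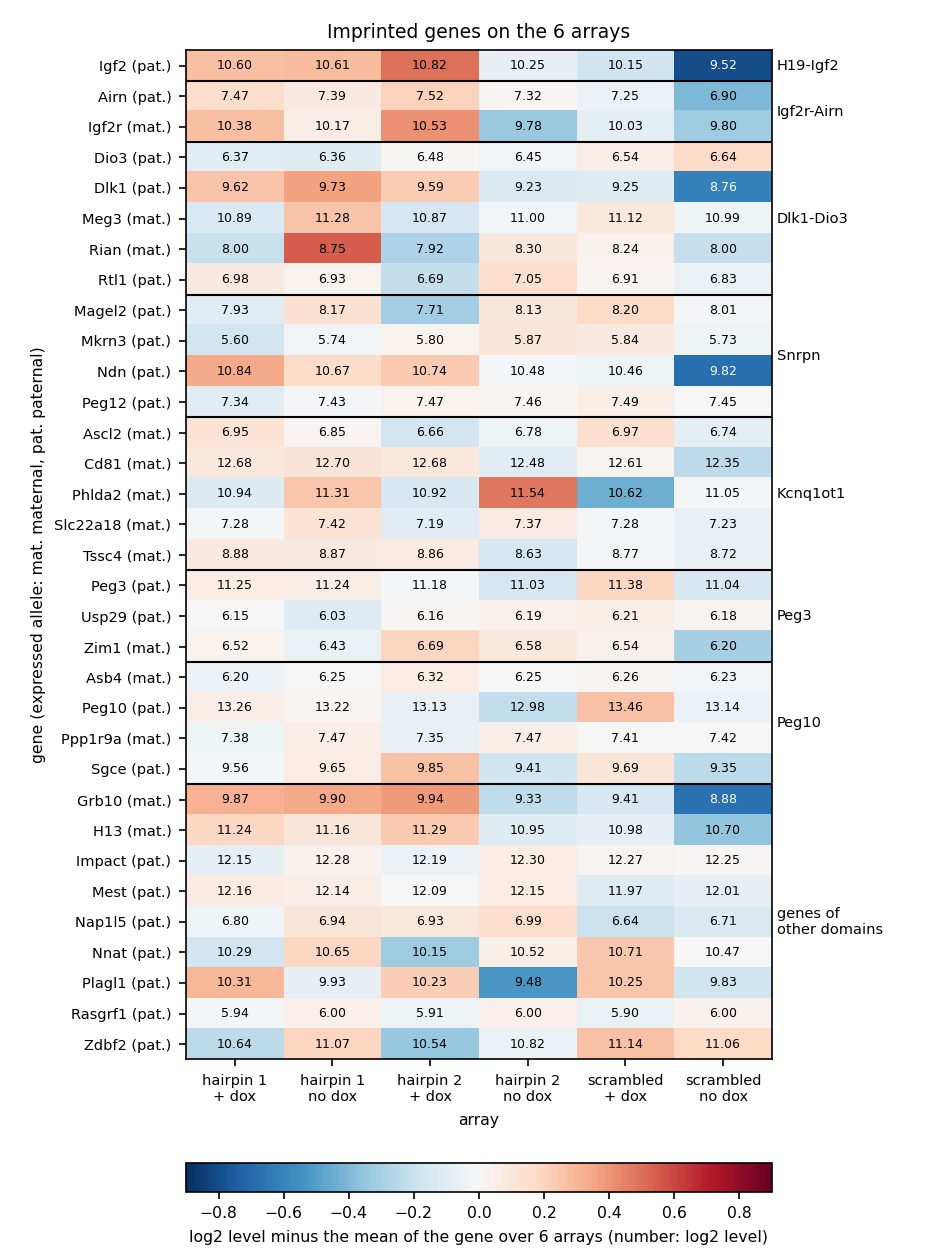
Log2 level (number in each cell) of the 33 imprinted genes on the 6 arrays, with colour for the difference from the mean of the gene over the arrays and lines between domains. Igf2, Grb10, Dlk1 and Ndn were lowest on the uninduced scrambled array, at 9.52, 8.88, 8.76 and 9.82, and Phlda2 was lower on each induced array than on the uninduced array of its line.

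Sorted by the parental copy that is known to be expressed, the 13 maternally expressed members had median changes of -0.03, 0.06 and 0.22 for hairpin 1, hairpin 2 and scrambled. The 20 paternally expressed members had medians of -0.04, -0.01 and 0.15. Both classes held lower and higher values: in the hairpin 2 pair the maternal class ran from -0.62 (Phlda2) to 0.75 (Igf2r) and the paternal class from -0.42 (Magel2) to 0.75 (Plagl1). The parental classes were not tested against each other.

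Plagl1, a zinc finger transcription factor that restrains cell growth and is expressed from the paternal copy, had the only values that were higher on all 3 arrays with dox than on all 3 without. It measured 10.31 with and 9.93 without dox in the hairpin 1 line, 10.23 and 9.48 in the hairpin 2 line, and 10.25 and 9.83 in the scrambled line. The induced arrays lay close together (mean 10.26 ± 0.04, SD, n = 3) and the uninduced arrays lay lower and further apart (9.75 ± 0.24, SD, n = 3). Over the 3 lines the difference was 0.51 (SE 0.09, limma adjusted p = 0.319), and within the Pcgf6-hairpin cells it was 0.56 (SE 0.15, limma adjusted p = 0.424). The scrambled line, which has no hairpin against Pcgf6, measured 0.42 higher with dox. Separation upward of this kind was found for 4.08% of all genes and for 3.03% of members (1 of 33).

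Phlda2, a pleckstrin-homology protein of the placenta and maternally expressed in the Kcnq1ot1 domain, lay lower with dox in every line. Its values were 10.94 with and 11.31 without dox in the hairpin 1 line, 10.92 and 11.54 in the hairpin 2 line, and 10.62 and 11.05 in the scrambled line. All 3 induced arrays were below all 3 uninduced arrays. The difference was -0.49 in the Pcgf6-hairpin cells (SE 0.10, limma adjusted p = 0.277) and -0.47 over the 3 lines (SE 0.08, limma adjusted p = 0.282). Against the scrambled pair the difference in change was -0.07, since the scrambled pair alone measured -0.43. Ppp1r9a, a neurabin scaffold protein, and Rasgrf1, a Ras exchange factor, were the other members with all induced arrays below all uninduced ones, by at most 0.12 in a pair. Together these were 3 of 33 members (9.09%), beside 8.07% of all genes. Rasgrf1 was read between 5.90 and 6.00, near the lower quartile of genes on an array (5.98 to 6.06). Ppp1r9a differed by only -0.01 in the scrambled pair.

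Across the 3 lines, dox against no dox called 0 members and 0 genes in all (0%); at an unadjusted p under 0.05, 7 members were higher and 1 lower (24.2% of members and 11.6% of all genes), and the medians were 0.02 for members and -0.01 for all genes. The 6 members with the largest differences were Plagl1, Phlda2, Igf2r, Igf2, Grb10 and Ndn; with the mean of the fibroblast markers as a term of the model those of Igf2 and Grb10 went from 0.39 and 0.37 to -0.02 each. Igf2r, the mannose-6-phosphate receptor that carries IGF2 to the lysosome, measured 10.38 with and 10.17 without dox in the hairpin 1 line, 10.53 and 9.78 in the hairpin 2 line, and 10.03 and 9.80 in the scrambled line. It was higher with dox in every line, most in the hairpin 2 line, and the arrays overlapped between lines. Its difference was 0.40 over the lines (SE 0.12, limma adjusted p = 0.345) and 0.48 in the Pcgf6-hairpin cells (SE 0.14, limma adjusted p = 0.482). Airn, the paternal non-coding RNA that is transcribed across the Igf2r promoter on the opposite strand, was also higher with dox in each line, by 0.07, 0.19 and 0.35 for hairpin 1, hairpin 2 and scrambled.

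**Figure D2:**
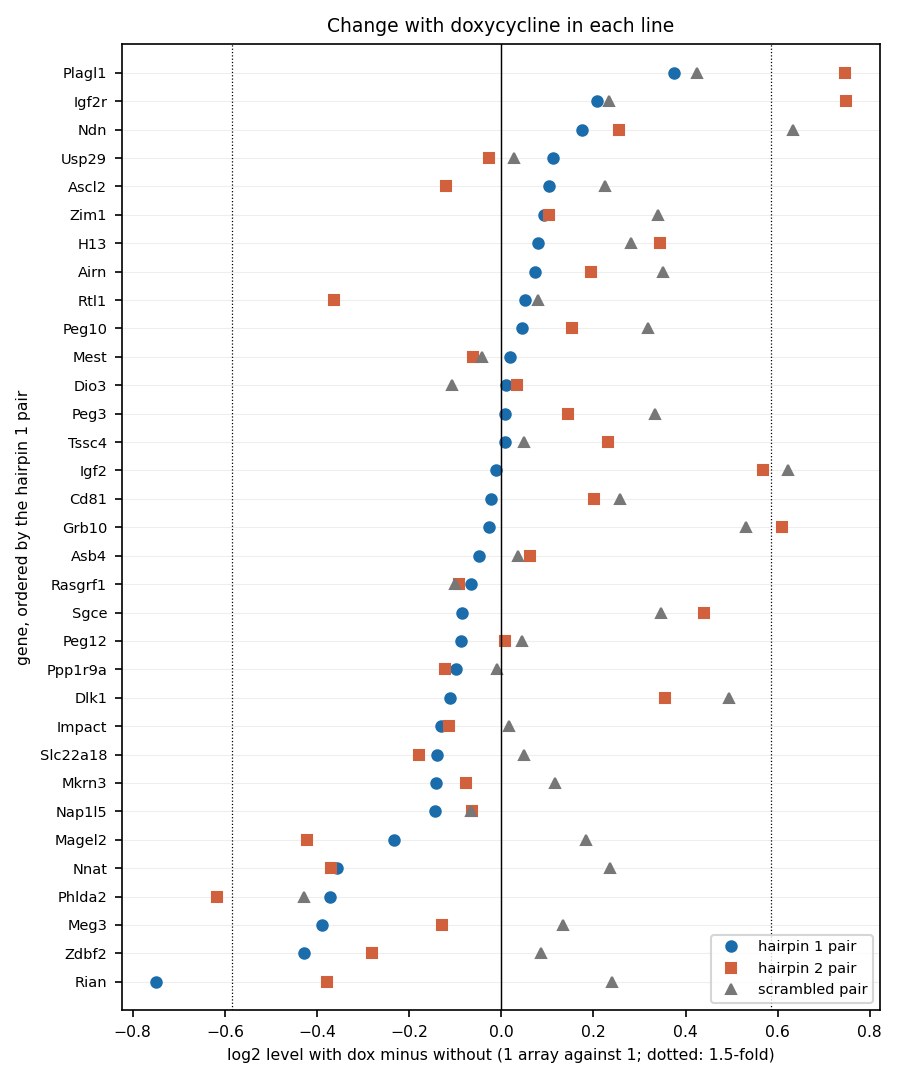
Log2 level with dox minus without for the 33 imprinted genes (rows, ordered by the hairpin 1 pair), with 1 symbol per line and dotted lines at 1.5-fold. Plagl1, Igf2r and Ndn lie to the right and Phlda2 to the left in all 3 lines, while Rian, Nnat and Zdbf2 lie left under both Pcgf6 hairpins and right in the scrambled pair.

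A group of members was lower with dox under both Pcgf6 hairpins and higher in the scrambled pair. These were Rian, Meg3, Nnat, Zdbf2, Magel2, Mkrn3, Slc22a18 and Impact, 8 of 33 members (24.2%), beside 12.0% of all genes with this order of signs. Lower under both Pcgf6 hairpins, whatever the sign in the scrambled pair, were 12 of 33 members and 6069 of all 19938 genes. Higher in the scrambled pair were 27 of 33 members and 9269 of all genes. Members thus stood further from all genes in the scrambled pair than under the hairpins. The changes of the 8 in the scrambled pair were small, from 0.02 (Impact) to 0.24 (Rian), and rest on 1 array each.

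Nnat, a small membrane proteolipid of developing brain and a paternally expressed gene, measured 10.29 with and 10.65 without dox in the hairpin 1 line, 10.15 and 10.52 in the hairpin 2 line, and 10.71 and 10.47 in the scrambled line. Its induced hairpin arrays were the lowest of all 6, and its induced scrambled array the highest. The difference in the Pcgf6-hairpin cells was -0.36 (SE 0.10, limma adjusted p = 0.429), and the difference from the scrambled change was -0.60 (SE 0.17, limma adjusted p = 0.952). Zdbf2, a zinc finger gene whose imprint is set by a transcript active in early embryos, measured 10.64 with and 11.07 without dox in the hairpin 1 line, 10.54 and 10.82 in the hairpin 2 line, and 11.14 and 11.06 in the scrambled line. The induced hairpin arrays were again the lowest of the 6. Its difference in the Pcgf6-hairpin cells was -0.35 (SE 0.11, limma adjusted p = 0.496). Magel2, a member of the MAGE family in the Snrpn domain, measured 7.93 with and 8.17 without dox in the hairpin 1 line, 7.71 and 8.13 in the hairpin 2 line, and 8.20 and 8.01 in the scrambled line. Here too the induced hairpin arrays were lowest, and the difference from the scrambled change was -0.51 (SE 0.18, limma adjusted p = 0.999). Meg3, Impact and Ppp1r9a also had both induced hairpin arrays lowest. The share of all genes with this order was not counted, so it is not shown to be particular to members.

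The Dlk1-Dio3 domain of chromosome 12 holds the paternally expressed coding genes Dlk1, Rtl1 and Dio3 and a long run of maternally expressed non-coding RNAs, among them Meg3, Rian and Mirg, with many microRNA and small nucleolar RNA genes. It is followed closely in stem cells, because silencing of the maternal non-coding RNAs there has marked mouse pluripotent lines of poor developmental potential. Rian, the host transcript of small nucleolar RNAs, measured 8.00 with and 8.75 without dox in the hairpin 1 line, 7.92 and 8.30 in the hairpin 2 line, and 8.24 and 8.00 in the scrambled line. The uninduced hairpin arrays were the highest of the 6, and the induced hairpin 1 array lay at the level of the uninduced scrambled array. Its difference in the Pcgf6-hairpin cells was -0.56 (SE 0.15, limma adjusted p = 0.421), and the difference from the scrambled change was -0.80 (SE 0.26, limma adjusted p = 0.999). The probe set that Rian shares with the small nucleolar RNA gene AF357355 differed by -0.71, -0.27 and -0.05 for hairpin 1, hairpin 2 and scrambled, so both probe sets were lower in the Pcgf6-hairpin pairs and had opposite signs in the scrambled pair.

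Meg3, the long non-coding RNA that starts the maternal transcription unit, measured 10.89 with and 11.28 without dox in the hairpin 1 line, 10.87 and 11.00 in the hairpin 2 line, and 11.12 and 10.99 in the scrambled line. The induced hairpin arrays were lowest, but the induced hairpin 2 array was only 0.13 below the uninduced array of its line. Mirg, the most downstream of the non-coding RNAs, was read with Mir410 by a shared probe set, which differed by -0.34, -0.27 and -0.18 for hairpin 1, hairpin 2 and scrambled. The coding genes had no common direction: Dlk1, a membrane protein of the Notch ligand type that is known from fat precursor cells, differed by -0.11, 0.36 and 0.49, Rtl1, a retrotransposon-derived gene of the placenta, by 0.05, -0.36 and 0.08, and Dio3, the thyroid hormone deiodinase, by 0.01, 0.03 and -0.11.

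The microRNA genes of this domain were taken as a wider readout of the maternal transcript, and 38 of them had a probe set of their own. Mature sequences from RefSeq (GRCm38.p6) are given for the 4 with the largest differences in the Pcgf6-hairpin cells, in their order along the plus strand of chromosome 12 and with the seed, bases 2 to 8, in capitals.
mmu-miR-127-5p: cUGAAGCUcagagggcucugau
mmu-miR-127-3p: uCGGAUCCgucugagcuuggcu
mmu-miR-380-5p: aUGGUUGAccauagaacaugcg
mmu-miR-380-3p: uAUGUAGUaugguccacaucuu
mmu-miR-300-5p: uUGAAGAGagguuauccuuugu
mmu-miR-300-3p: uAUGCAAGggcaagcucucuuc
mmu-miR-668-5p: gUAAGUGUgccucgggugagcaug
mmu-miR-668-3p: uGUCACUCggcucggcccacuacc
The 8 arms carried 8 distinct seeds, so these 4 genes share no seed. An array probe set does not tell the precursor from the mature RNA, and the values below are levels of the gene's probe set. Mir300 differed by -1.04, -0.01 and -0.37 for hairpin 1, hairpin 2 and scrambled, Mir380 by -0.68, -0.15 and 0.38, Mir127 by -0.60, -0.16 and -0.04, and Mir668 by -0.43, -0.43 and -0.16. Mir380 ranged from 5.19 to 6.08 and Mir300 from 5.74 to 6.91 over the arrays, at or near the lower quartile of genes on an array (5.98 to 6.06). Mir668 was the most even of the 4 between hairpins, with a difference of -0.43 in the Pcgf6-hairpin cells (SE 0.08, limma adjusted p = 0.198). None of the 42 measured small RNA genes of imprinted domains, which include 4 outside this domain, passed in any of the 6 comparisons; at an unadjusted p under 0.05 in the Pcgf6-hairpin cells, 0 were higher and 11 lower, beside 8.75% of all genes in either direction.

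Over the 38 microRNA genes, the median change was -0.40 in the hairpin 1 pair, -0.03 in the hairpin 2 pair and 0.05 in the scrambled pair. In the hairpin 1 pair 37 of 38 were lower with dox, with Mir370 (0.25) the exception, against 24 in the hairpin 2 pair and 18 in the scrambled pair. The induced hairpin 1 array was the lowest of the 6 for 27 of the 38. Among the 262 microRNA genes elsewhere, the medians were -0.03, -0.07 and -0.02, 57.6% were lower in the hairpin 1 pair, and the induced hairpin 1 array was lowest for 21.0%; over all genes 49.6% were lower and the share was 14.0%. Genes of the domain share a transcription unit and 1 array decides each pair, so they are not 38 separate observations. At least 1.5-fold lower were 8 of the 38 (21.1%) in the hairpin 1 pair and 0 in the others, against 1.15%, 1.53% and 0.763% of microRNA genes elsewhere and 0.241%, 0.446% and 0.211% of all genes for hairpin 1, hairpin 2 and scrambled. The mean level lay below the lower quartile of every array for 14 of the 38, down to 2.85 for Mir376c; 2 of the 8 were among these. The other 24 had median changes of -0.44, -0.12 and 0.03, and 23 of them were lower in the hairpin 1 pair. Fibroblast markers had a median change of 0.00 in the hairpin 1 pair, and medians of 0.44 and 0.56 in the hairpin 2 and scrambled pairs.

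**Figure D3:**
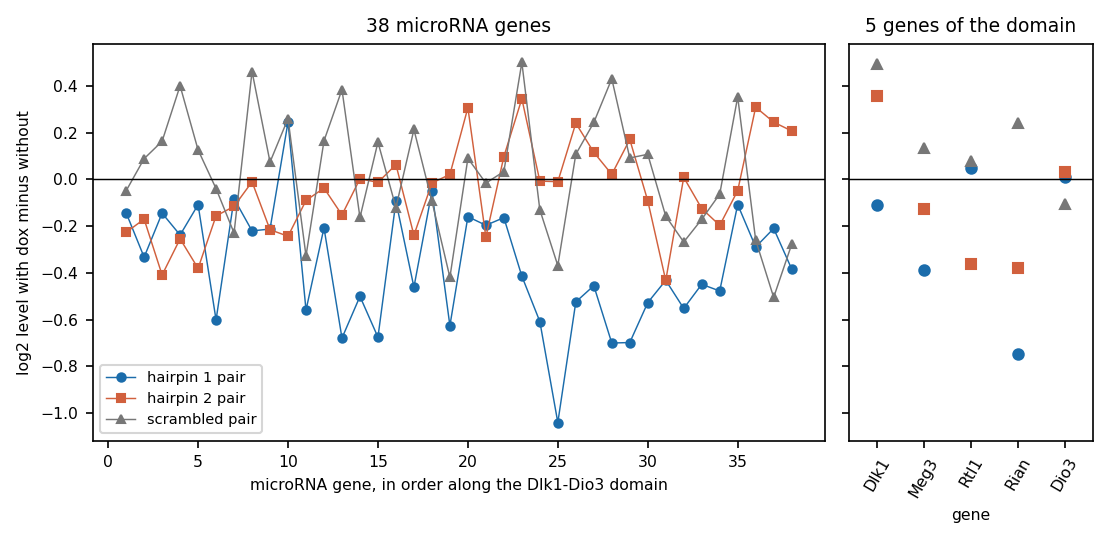
Log2 level with dox minus without for 38 microRNA genes in their order along the Dlk1-Dio3 domain (left) and for 5 genes of the domain with a probe set of their own (right), by line. The hairpin 1 pair lies below 0 for 37 microRNA genes, with a median of -0.40, while the hairpin 2 and scrambled pairs have medians of -0.03 and 0.05.

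The Snrpn domain, which is the mouse counterpart of the Prader-Willi region, showed no common direction under the Pcgf6 hairpins. All 4 of its measured members were higher with dox in the scrambled pair, by 0.05 to 0.63. Among the members this was not particular to the domain, since 27 of the 33 were higher in that pair. Genes in general were not: 9269 of all 19938 were higher, with a median change of -0.01. Ndn, a MAGE protein of neurons and of mesenchymal cells, measured 10.84 with and 10.67 without dox in the hairpin 1 line, 10.74 and 10.48 in the hairpin 2 line, and 10.46 and 9.82 in the scrambled line. It was higher with dox in each line, most in the scrambled line, and its difference over the lines was 0.36 (SE 0.10, limma adjusted p = 0.345). Magel2, its neighbour, was lower under both hairpins, as given above. Peg12 differed by at most 0.09 in a pair, and Mkrn3 was read near the lower end of the scale, between 5.60 and 5.87, where the lower quartile of genes on an array was 5.98 to 6.06. The shared probe set of Snurf and Snrpn differed by -0.15, -0.38 and 0.01 for hairpin 1, hairpin 2 and scrambled.

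In the Kcnq1ot1 domain, Slc22a18 (a transporter), Ascl2 (a placental transcription factor), Cd81 (a tetraspanin) and Tssc4 differed by at most 0.26 in any pair, in contrast to Phlda2. In the Peg3 domain, Peg3, a large zinc finger gene, was higher with dox by 0.01, 0.15 and 0.33 for hairpin 1, hairpin 2 and scrambled, and Usp29, a ubiquitin protease gene on the opposite strand with 163 bases between the starts, differed by 0.11, -0.03 and 0.03. Zim1 was higher by 0.09, 0.10 and 0.34. In the Peg10 domain, Peg10, a retrotransposon-derived gene of the placenta, was higher by 0.05, 0.15 and 0.32, Sgce (a sarcoglycan) differed by -0.09, 0.44 and 0.35, and Asb4 by at most 0.06. Mest, a paternal gene of mesodermal tissue, varied by 0.19 over all 6 arrays, and Impact, a translation regulator, by 0.16. Nap1l5 differed by at most 0.15 in a pair. The shared probe set of Gnas and Gnasas1 was higher by 0.07, 0.18 and 0.29. None of the 4 shared probe sets passed when all 35556 probe sets were tested.

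Lines were also compared, each over its arrays with and without dox. The hairpin 2 line against the scrambled line called 0 members beside 0.466% of all genes (93 genes). At an unadjusted p under 0.05, 9 members were higher and 2 lower (33.3% against 10.8%). Medians were 0.01 for members and 0.00 for all genes. The hairpin 1 line against the scrambled line called 0 members and 0 genes (0%), with 8 higher and 1 lower at an unadjusted p under 0.05 (27.3% against 10.7%) and medians of 0.08 and 0.00. The hairpin 1 line against the hairpin 2 line called 0 members and 0 genes (0%), and 0 members reached an unadjusted p under 0.05, against 6.64% of all genes; the median was 0.08 for members, and the largest differences were 0.26 for Rian, Plagl1 and Dlk1 and 0.25 for Grb10, 0.18 for Peg10 and 0.18 for Ascl2. Each line stands for 1 array with and 1 without dox, and comparisons against the scrambled line share its arrays. A difference from the scrambled line therefore holds part of the change under dox in the Pcgf6-hairpin lines. Pcgf6 itself differed from the scrambled line by -1.34 in the hairpin 1 line and by -1.33 in the hairpin 2 line.

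The largest line differences were those of Igf2, Grb10, Dlk1 and Ndn. Igf2, the fetal growth factor, measured 10.60 with and 10.61 without dox in the hairpin 1 line, 10.82 and 10.25 in the hairpin 2 line, and 10.15 and 9.52 in the scrambled line. All 4 arrays of the Pcgf6-hairpin lines were above both scrambled arrays. The hairpin 1 line was higher than the scrambled line by 0.77 (SE 0.16, limma adjusted p = 0.218) and the hairpin 2 line by 0.70 (SE 0.16, limma adjusted p = 0.168). Without the induced hairpin 1 array, 3 members passed in the hairpin 1 line: Igf2 (1.07, limma adjusted p = 0.0230), Grb10 (1.03, 0.0230) and Dlk1 (0.94, 0.0261). Without either hairpin 1 array Igf2 passed in the hairpin 2 line (0.70, limma adjusted p = 0.0200), and no other member passed with any array left out.

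Grb10, an adaptor that restrains insulin and IGF signalling, measured 9.87 with and 9.90 without dox in the hairpin 1 line, 9.94 and 9.33 in the hairpin 2 line, and 9.41 and 8.88 in the scrambled line. It differed from the scrambled line by 0.74 (SE 0.16, limma adjusted p = 0.218) in the hairpin 1 line and by 0.49 (SE 0.16, limma adjusted p = 0.321) in the hairpin 2 line. Dlk1 measured 9.62 with and 9.73 without dox in the hairpin 1 line, 9.59 and 9.23 in the hairpin 2 line, and 9.25 and 8.76 in the scrambled line, and its differences were 0.67 (SE 0.15, limma adjusted p = 0.222) and 0.41 (SE 0.15, limma adjusted p = 0.378). For both genes the uninduced hairpin 2 array lay below the induced scrambled array, so the lines overlapped. Ndn differed by 0.61 (SE 0.12, limma adjusted p = 0.218) and 0.47 (SE 0.12, limma adjusted p = 0.228), and all its arrays of the Pcgf6-hairpin lines were above both scrambled arrays. Mest, Nap1l5 and Airn shared that order with Igf2 and Ndn, and its share of all genes was not counted. H13, a signal peptide peptidase, measured 11.24 with and 11.16 without dox in the hairpin 1 line, 11.29 and 10.95 in the hairpin 2 line, and 10.98 and 10.70 in the scrambled line, a difference of 0.36 for the hairpin 1 line (SE 0.10, limma adjusted p = 0.274). Phlda2 was 0.39 higher in the hairpin 2 line than in the scrambled line (SE 0.10, limma adjusted p = 0.198). Zdbf2 was 0.42 lower in the hairpin 2 line than in the scrambled line (-0.42, SE 0.13, limma adjusted p = 0.302). Its hairpin 2 and scrambled arrays measured 10.54 and 11.14 with dox, and 10.82 and 11.06 without. The induced arrays were thus further apart than the uninduced ones.

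The fibroblast list was higher in the same lines as these members. Its median line difference was 0.58 for the hairpin 1 line, where 0 of 24 markers passed, beside 0% of all genes. The median was 0.64 for the hairpin 2 line, where Lum, Col6a1, Col6a2, Col6a3 and Postn passed, beside 0.466% of all genes. Of 12 measured markers of primitive endoderm, 0 passed for the hairpin 1 line. For the hairpin 2 line 1 passed, Pdgfra (1.56, SE 0.21, limma adjusted p = 0.0391). Like the fibroblast mean, Pdgfra was highest on the induced hairpin 2 array and lowest on the uninduced scrambled array. At an unadjusted p under 0.05 in the hairpin 2 line, 3 of the 12 were higher and 2 lower. The lower ones were Sox7 (-0.35) and Lama1 (-0.31). Whether the difference of Pdgfra came from endoderm or fibroblasts was not tested. Medians of these 12 markers were -0.03 and 0.09 for the 2 lines. Igf2, Grb10, Zim1, Sgce, Airn and H13 were highest on the induced hairpin 2 array and lowest on the uninduced scrambled array, the extremes of the fibroblast list, 6 of 33 members (18.2%) beside 7.09% of all genes. Airn alone of the members followed the list's order on all 6 arrays, and the share of all genes with that order was not counted. With the fibroblast mean as a term of the model, the difference of Igf2 between the hairpin 1 and scrambled lines went from 0.77 to 0.03 (SE 0.22), that of Grb10 from 0.74 to 0.03 (SE 0.24), that of Dlk1 from 0.67 to -0.01 (SE 0.22) and that of Ndn from 0.61 to 0.21 (SE 0.26). Between the hairpin 2 and scrambled lines, Igf2 went from 0.70 to -0.17 (SE 0.25) and Grb10 from 0.49 to -0.34 (SE 0.27). There Dlk1 went from 0.41 to -0.38 (SE 0.25) and Ndn from 0.469 to -0.002 (SE 0.29). The term thus reversed the sign of Igf2, Grb10 and Dlk1 in the hairpin 2 line. The dox difference over the lines went from 0.39 to -0.02 (SE 0.13) for Igf2, from 0.37 to -0.02 (SE 0.14) for Grb10, from 0.36 to 0.13 (SE 0.16) for Ndn and from 0.40 to 0.27 (SE 0.20) for Igf2r. It changed less for Plagl1, from 0.51 to 0.41 (SE 0.16), and for Phlda2, from -0.47 to -0.39 (SE 0.14). The difference of Rian in the Pcgf6-hairpin cells went from -0.56 to -0.61 (SE 0.22). Some other line differences grew in size. That of Rian went from 0.26 to -0.69 (SE 0.30) for hairpin 1 and that of Zdbf2 from -0.42 to -0.97 (SE 0.29) for hairpin 2. That term leaves 1 residual degree of freedom, and the part of feeder RNA in these values was not tested.

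**Figure D4:**
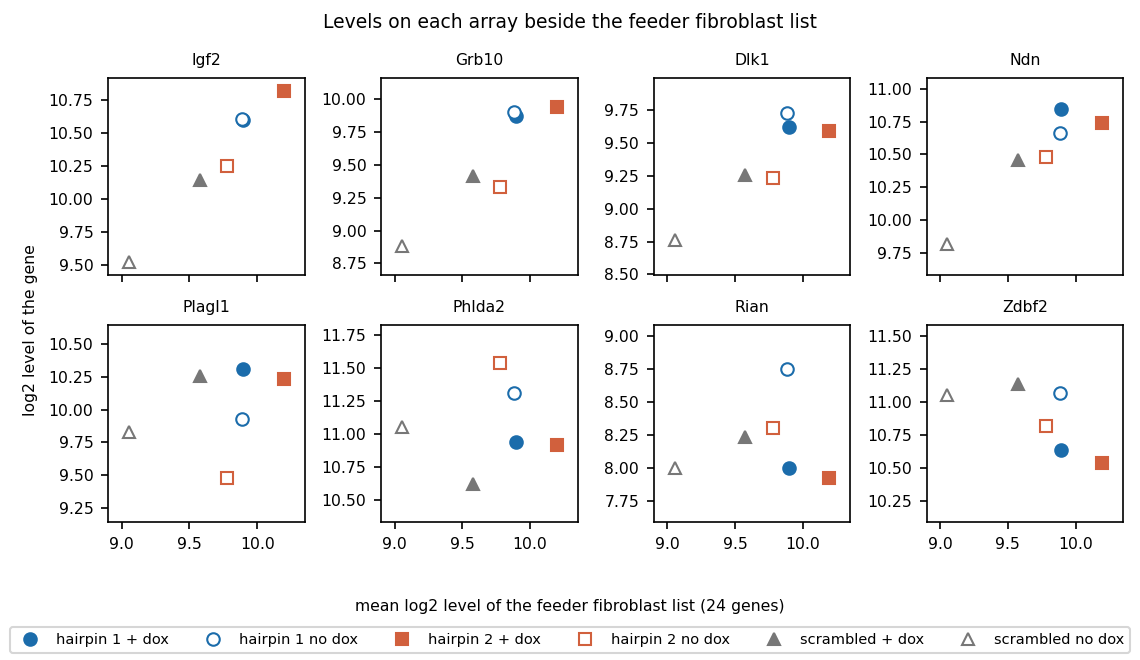
Log2 level of 8 imprinted genes (vertical axes, each spanning the same width) against the mean log2 level of 24 fibroblast markers (horizontal axis) on the 6 arrays; filled symbols are with dox. Igf2, Grb10, Dlk1 and Ndn are lowest on the uninduced scrambled array, where the fibroblast mean is 9.05, while Phlda2 and Plagl1 separate by dox.

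**Figure D5:**
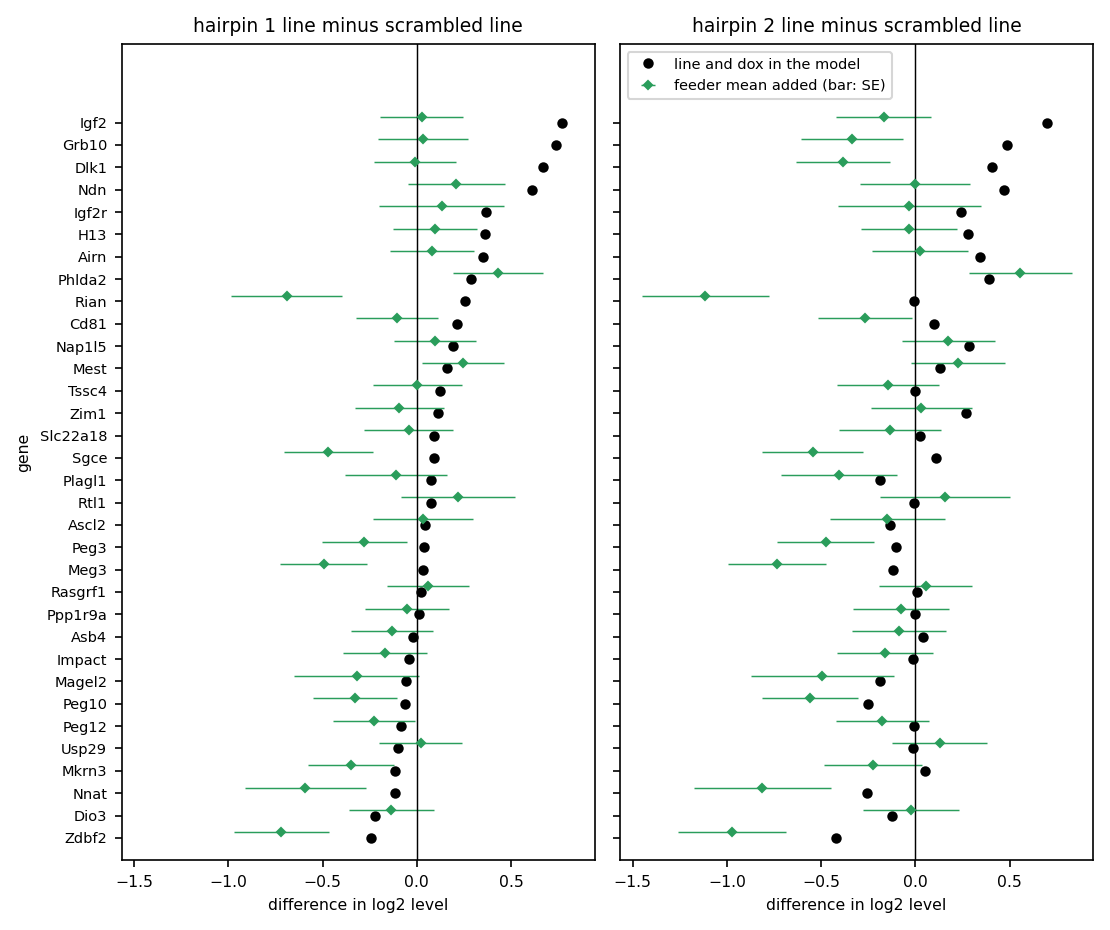
Difference in log2 level between each Pcgf6-hairpin line and the scrambled line for the 33 imprinted genes, from the model of line and dox (circles) and with the fibroblast mean added (diamonds, bars are SE). Igf2, Grb10 and Dlk1 stand at 0.77, 0.74 and 0.67 for hairpin 1 without that term and at 0.03, 0.03 and -0.01 with it. For hairpin 2 they stand at 0.70, 0.49 and 0.41 without it and at -0.17, -0.34 and -0.38 with it.

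Of 41 measured genes in a separate list of other imprinted genes, 1 passed as lower and 0 as higher with dox in the Pcgf6-hairpin cells. This stood beside 0.201% of all genes (40 genes), and the list median was 0.02. At an unadjusted p under 0.05, 6 were higher and 5 lower, beside 8.75% of all genes in either direction. The gene that passed was Calcr, the calcitonin receptor of the Peg10 domain. It measured 7.65 with and 8.57 without dox in the hairpin 1 line, 7.83 and 8.57 in the hairpin 2 line, and 8.21 and 8.28 in the scrambled line. Its difference was -0.83 (SE 0.10, limma adjusted p = 0.0470), but its difference from the scrambled change did not pass (-0.75, SE 0.17, limma adjusted p = 0.678), and it no longer passed when any 1 of the 4 hairpin arrays was left out (adjusted p 0.101 to 0.387). Gatm, a creatine synthesis enzyme imprinted in placenta, measured 1.17 higher (SE 0.14, limma adjusted p = 0.0519), by 1.12 and 1.23 under the hairpins and 0.07 in the scrambled pair. Gab1, a signalling adaptor, measured 0.65 lower (-0.65, SE 0.09, limma adjusted p = 0.0729). Dcn, a matrix proteoglycan that fibroblasts also express, was higher in the hairpin 2 line than in the scrambled line (1.16, SE 0.14, limma adjusted p = 0.0358); without the induced or the uninduced hairpin 2 array or the uninduced scrambled array it did not pass (adjusted p 0.292, 0.121 and 0.0837). With the fibroblast mean as a term, its difference was 0.39 (SE 0.25, limma adjusted p = 0.971).

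Of 27 genes known to keep or set imprints, 0 passed in any of the 6 comparisons; in the Pcgf6-hairpin cells 2 were higher and 5 lower at an unadjusted p under 0.05, beside 8.75% of all genes in either direction. The lowest adjusted p there was that of Dnmt3b, a de novo DNA methyltransferase, at 10.89 with and 11.57 without dox in the hairpin 1 line, 10.95 and 11.57 in the hairpin 2 line, and 11.13 and 11.24 in the scrambled line (-0.65, SE 0.08, limma adjusted p = 0.0688). Its cofactor Dnmt3l measured -0.41 (SE 0.11, limma adjusted p = 0.439) and Dnmt3a -0.37 (SE 0.09, limma adjusted p = 0.400), and Dnmt3a was also 0.36 lower with dox in the scrambled pair (-0.36). Dppa3, which shields imprints in the zygote, differed by 0.36, 0.17 and -0.54 for hairpin 1, hairpin 2 and scrambled. Of 26 measured genes that flank imprinted domains and are not imprinted, 0 passed in any of the 6 comparisons, and their differences in the Pcgf6-hairpin cells ran from -0.17 to 0.25, with 1 higher and 0 lower at an unadjusted p under 0.05 (8.75% of all genes in either direction), against -0.56 to 0.56 for the members.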

How the data were processed

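Total RNA of 6 samples was hybridised to 1-colour arrays. The authors deposited log2 values; the submitters' processing notes name Affymetrix Power Tools and RMA, which corrects background, gives the arrays a common distribution and summarises probes, and which removes changes that most genes share. Their versions are not given in the sources used here. Of 35556 probe sets, 21789 had 1 symbol in the platform annotation, 1621 several and 12146 none; the brightest probe set was used for each of 19938 genes, without a filter. No value column was left unmatched (0).

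limma 3.58.1 in R 4.3.3 was fitted over all 6 arrays with 1 mean per group (4 groups) for the Pcgf6-hairpin cells and their difference from scrambled, and with line and dox as terms for dox over all lines and for lines. The model of line and dox takes 1 dox effect for all lines, although Pcgf6 fell with dox only in the Pcgf6-hairpin lines. Errors given as SE are moderated standard errors. With 1 array per scrambled group, that group's spread was assumed equal to the hairpin groups', and precision is limited by the small number of arrays. Samples were grouped by the treatment label. The hairpin number pairs arrays of the same line (deviations correlated at 0.18), and a block was an alternative. Alternatives were normalisation, filters on dim genes, an intensity trend, the choice of probe set, the fibroblast mean as a term and leaving out each array. The procedure was tested on simulated data.

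Members and lists were chosen with earlier results of these data known. Values on all arrays are given for the 6 members with the largest difference in each comparison, and from other lists for at most 4 genes a comparison and those that passed; pair changes are given for other members and for genes of the Dlk1-Dio3 domain. Ascl2 and Peg10 are given by their differences.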

Additional observations from a re-analysis of the deposited data

How the results depend on the processing

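The count of members that passed stayed at 0 in every alternative run for dox in the Pcgf6-hairpin cells, its difference from scrambled, dox over all lines and the hairpin lines against each other, with the smallest adjusted p (limma) of a member between 0.133 and 1.00, 0.538 and 1.00, 0.0569 and 0.962, and 0.335 and 1.00. With a replicate block for the hairpin line, 0 members passed in the Pcgf6-hairpin cells (smallest adjusted p 0.195; 54 genes in all) and 0 in the difference from scrambled (0.603; 23 genes); with no replicate block, 0 passed for dox over all lines (0.673). Leaving out 1 array at a time gave 0 to 3 members for the hairpin 1 line and 0 to 1 for the hairpin 2 line against scrambled. Quantile normalisation left 0 members at least 1.5-fold lower in the hairpin 2 pair, where Phlda2 was at -0.62 in the deposited values. Counts over all genes ranged from 7 to 62, 0 to 23 and 0 to 54 for the dox comparisons, and 0 to 277, 0 to 256 and 0 to 13 for hairpin 1 against scrambled, hairpin 2 against scrambled and hairpin 1 against hairpin 2. Leaving out a scrambled array gave no value for the difference from scrambled. Calcr passed in 6 of 15 alternatives and Dcn in 8 of 15. These counts hold repeats. Leaving out either scrambled array does not alter the fit for dox in the Pcgf6-hairpin cells, so those passes of Calcr are the main fit again. Leaving out either hairpin 1 array gave Dcn the same fit. Causes were not tested.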
